A study of Mus musculus with 2 samples.

Results

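The Notch pathway was followed here through 10 genes: the receptors Notch1, Notch2 and Notch3, the ligands Jag1, Jag2 and Dll1, and the target genes Hes1, Hey1, Heyl and Nrarp. Hes1, Hey1 and Heyl code for transcriptional repressors and Nrarp for a protein that limits Notch signalling. These 4 are called target repressors here. All 10 genes were chosen by name with earlier results of these data known, so their counts and ranks are descriptions and not tests. Every probe set that the array's annotation gives to exactly 1 of them was used. This gave 19 probe sets for 10 genes, out of 34945 probe sets for 18193 genes in all. A probe set is a group of short probes against 1 transcript, and its signal is a linear intensity.

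Both arrays carry RNA from primary osteoblasts, the bone-forming cells, taken from the skull vault (calvaria) of CD1 mice aged 7 days. Both cultures were kept in medium with serum albumin in place of serum for 24 h and then treated for 24 h. The DMSO culture received the vehicle, and the PP1 culture received 2 µM PP1, an inhibitor of the kinase c-Src. No genotype is labelled, and the number of mice behind each culture is not given in the sources used here. There was 1 array per treatment and no replicate, so no test between the treatments was possible, and each value describes these 2 arrays.

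Notch receptors span the cell membrane and are engaged by ligands on neighbouring cells. Engagement leads to their cleavage by ADAM proteases and then by gamma-secretase, and the freed intracellular part enters the nucleus and joins the DNA-binding protein RBPJ to switch on target genes. Among the best known targets are HES and HEY genes, whose products are transcriptional repressors of the basic helix-loop-helix class, and Nrarp, whose product limits Notch signalling. In the osteoblast lineage, Notch signalling is known for restraining differentiation.

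The RefSeq promoter table (build GRCm38.p6) held 8 promoters for 7 of the 10 members, each running from 250 bases before to 50 bases after a transcription start. It held Nrarp, the 3 receptors and the 3 ligands. The promoters of Nrarp, a target with a lower signal after PP1, and of Jag1, the ligand whose representing probe set was lower, are shown to set a target beside a ligand. Capitals mark matches on either strand to letters that HES and HEY proteins are known to bind. These are the E-box form CACGTG, the related form CACGCG, also searched on both strands, and the N-box form CACNAG, and no match in these windows overlapped another. The Nrarp window lies at chr2:25180508-25180807 on the plus strand, and the Jag1 window at chr2:137116471-137116770 on the minus strand.
Nrarp: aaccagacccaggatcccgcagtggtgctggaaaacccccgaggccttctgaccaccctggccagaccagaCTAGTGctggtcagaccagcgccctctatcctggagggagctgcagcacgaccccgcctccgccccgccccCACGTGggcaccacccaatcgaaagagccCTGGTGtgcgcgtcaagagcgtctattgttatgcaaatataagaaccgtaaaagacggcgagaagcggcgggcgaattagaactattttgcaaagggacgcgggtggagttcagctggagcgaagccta
Jag1: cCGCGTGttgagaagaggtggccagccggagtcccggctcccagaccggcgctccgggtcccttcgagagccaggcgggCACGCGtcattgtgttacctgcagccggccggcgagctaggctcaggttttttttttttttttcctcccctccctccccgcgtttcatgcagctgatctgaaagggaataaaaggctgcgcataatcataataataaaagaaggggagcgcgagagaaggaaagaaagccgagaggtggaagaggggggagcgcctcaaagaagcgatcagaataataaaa

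The Nrarp window held 1 match to CACGTG, 108 bases before the start, and 2 to CACNAG, 179 and 79 bases before it. The Jag1 window held 2 matches to CACGCG, 249 and 171 bases before the start, and neither of the other motifs. None of the 8 windows held TGGGAA, the core letters that RBPJ is known to bind, on either strand. Of all 32851 promoters in the table, 25.6% held TGGGAA on either strand and 42.5% held the N-box form. The E-box form was held by 7.15% and its related form by 9.27%. A match describes the letters of the window only, and the arrays measured no binding.

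Signals of the PP1 array were multiplied by 1.68 so that both arrays had equal means after trimming 2% of the probe sets at each end. Signals below 31.7, the median over both arrays, were set to that floor before log2 was taken, so where 1 array is under the floor the true ratio may be larger than the one given, which is then a bound. The value of a gene is that of its brightest probe set, by the mean of both log2 signals, called the representing one. By this rule all 10 members were above the floor on at least 1 array, as were 12111 of 18193 genes in all. Of the 19 member probe sets, 16 were above it on at least 1 array, and the other 3 (1 each for Heyl, Nrarp and Jag2) were below it on both. The only error available is how far the log2 ratios of a gene's several probe sets scatter, with an SD of 0.41 over 4745 genes. It does not cover variation between cultures.

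The 4 target repressors all had lower signals on the PP1 array, by 2.25-fold (Hes1) to 3.54-fold (Heyl), with Nrarp given as a bound, whereas, in their representing probe sets, the 3 receptors lay near the bulk of genes. For the 3 ligands the data settle no direction. All 4 targets and 0 of 6 receptors and ligands were at least 2-fold lower. Nrarp was above the floor with DMSO only and Jag2 with PP1 only, so the filter fixed the direction of both. Over all measured genes, 1.55% were at least 2-fold lower and 2.97% at least 2-fold higher. By representing probe sets, the median log2 ratio (PP1 minus DMSO) was -1.52 for the targets and 0.03 for the receptors and ligands, beside 0.01 for all measured genes. The difference between the former medians was -1.55, a 2.93-fold difference. Scaling moves this difference only through members at the floor on 1 array, here Nrarp and Jag2, and it was -1.30 with the deposited, unscaled values, among which Jag2 was under the floor of that setting on both arrays. In bulk RNA, fewer cells expressing a gene and less RNA per cell cannot be told apart.

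**Figure D1:**
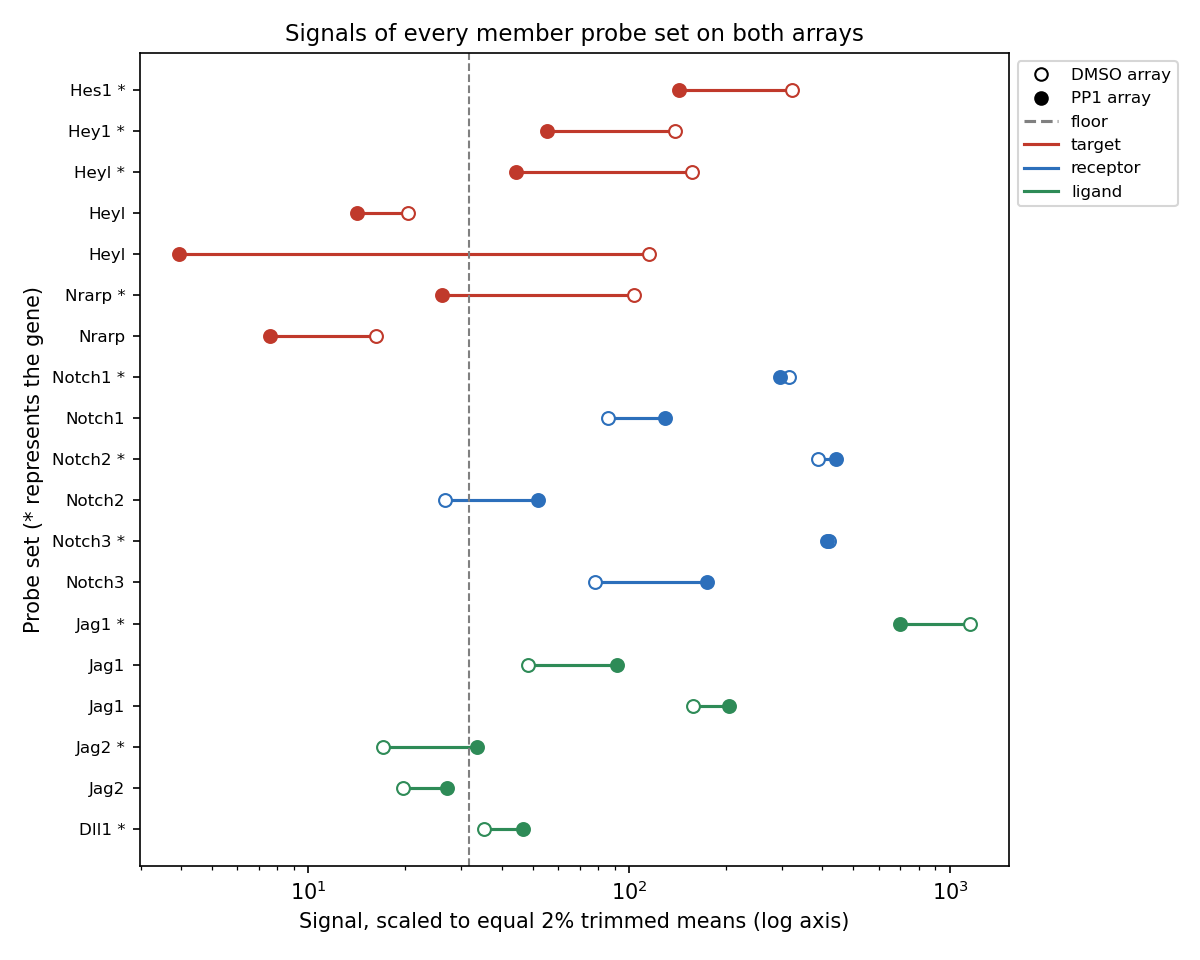
Signal of each member probe set (rows) on the DMSO array (open circles) and the PP1 array (filled circles), on a log axis after scaling to equal 2% trimmed means; the dashed line is the floor of 31.7 and an asterisk marks the probe set that represents its gene. The 5 target probe sets (red) above the floor on at least 1 array lie at least 2-fold further left on the PP1 array, beside 1.48% of all such probe sets. For 1 Heyl and 1 Nrarp probe set under the floor on both arrays no direction is read. The receptors (blue) and ligands (green) go both ways.

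Hes1 codes for a repressor that also acts on its own promoter. Its single probe set, 1418102_at, had a signal of 321 with DMSO and 143 with PP1. The difference was 2.25-fold, a log2 ratio of -1.17, with both arrays well above the floor. Counted from the lowest ratio upward, Hes1 was number 114 of 12111 genes.

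Hey1 and Heyl code for related HEY repressors, and Heyl is known as a target of Notch3 in the mural cells of vessels. The single probe set of Hey1, 1415999_at, gave 139 with DMSO and 55.4 with PP1. That is 2.51-fold lower, with a log2 ratio of -1.33. The representing probe set of Heyl, 1419302_at, gave 157 and 44.2. It was 3.54-fold lower (-1.82), number 23 from the lowest of all genes with signals held at the floor. A further Heyl probe set, 1438886_at, gave 116 with DMSO and 3.96 with PP1, which lies under the floor and puts the gene at least 3.64-fold lower by that measure. As 1438886_at passed the floor with DMSO only, it could only come out lower and is no separate support. The remaining Heyl probe set, 1419303_at, was under the floor on both arrays, at 20.5 and 14.2. The value for Heyl thus rests on 1419302_at.

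Nrarp codes for a small ankyrin repeat protein that binds the Notch intracellular part. Its representing probe set, 1417985_at, gave 104 with DMSO and 26.2 with PP1. The PP1 value was under the floor, so Nrarp was at least 3.27-fold lower (log2 ratio -1.71). Its other probe set was under the floor on both arrays, at 16.2 and 7.58.

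At the level of probe sets, 5 of the 5 target probe sets above the floor on at least 1 array were at least 2-fold lower. The background was 1.48% of 21219 probe sets. Of these target probe sets, 1417985_at of Nrarp and 1438886_at of Heyl were above the floor with DMSO only. By that filter they could only come out lower, so their direction carries no weight. The targets have modest signals, so genes of similar signal are set beside them. Among the 4031 genes whose mean signal lay in the range of the 4 targets, from 57.4 to 214, the SD of the log2 ratio was 0.54 and the median 0.07. In that range 2.26% of genes were at least 2-fold lower. The 4 targets lay between -1.82 and -1.17. This SD is a spread over genes and not the error of 1 ratio, and the targets were chosen with these data known.

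**Figure D2:**
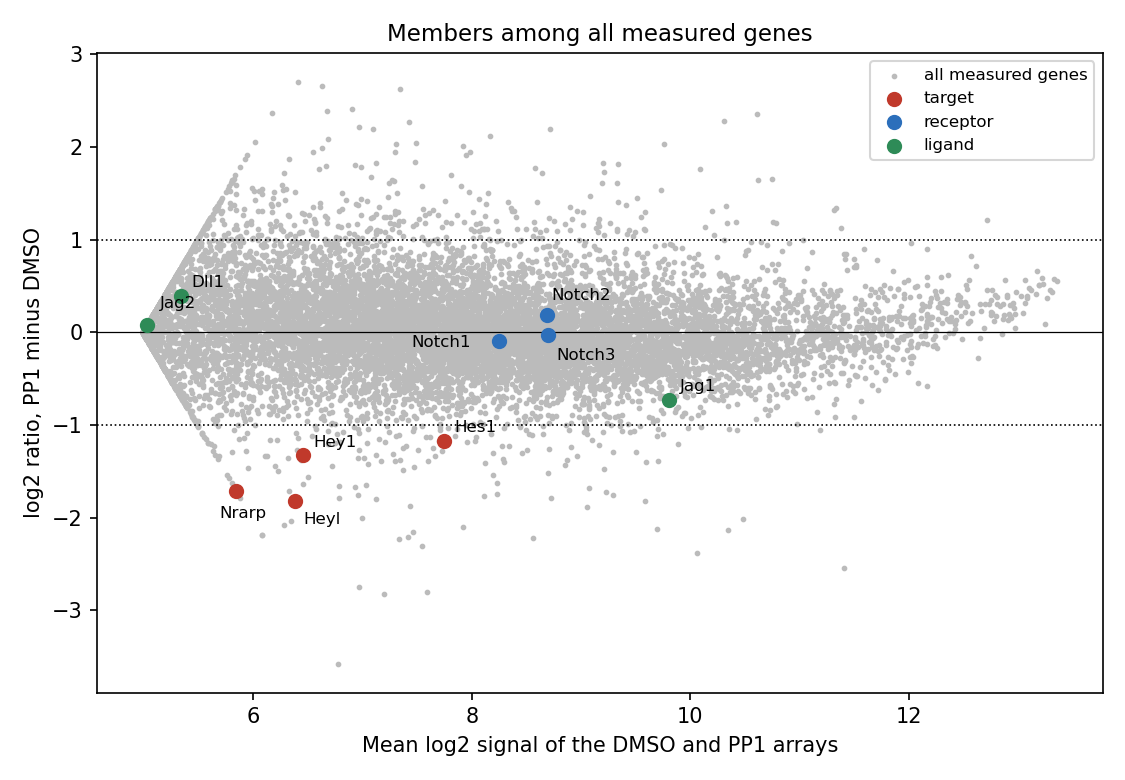
Log2 ratio (PP1 minus DMSO) against the mean log2 signal of both arrays for 12111 measured genes (grey) and the 10 members (targets red, receptors blue, ligands green); dotted lines mark 2-fold. The targets lie between -1.82 and -1.17, below the lower line, and the 6 receptors and ligands lie between -0.72 and 0.40, inside both lines.

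The receptor transcripts were at similar levels on both arrays by their representing probe sets. Notch1 (1418634_at) gave 314 with DMSO and 295 with PP1, a log2 ratio of -0.09. Notch2 (1455556_at) gave 387 and 441, a ratio of 0.19. Notch3 (1421965_s_at) gave 419 and 412, a ratio of -0.02. These differences are all smaller than the spread between probe sets.

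The further probe sets of the receptors were higher with PP1. That of Notch1 (1418633_at) went from 85.9 to 129 (0.59), and that of Notch3 (1421964_at) from 78.0 to 175 (1.17). That of Notch2 (1451889_at) was under the floor with DMSO, at 26.7, and reached 51.8 with PP1, for a lower bound of 0.71. By these probe sets 1 receptor, Notch3, was 2.25-fold higher, where 4.33% of all probe sets were at least 2-fold higher. None of the 6 receptor probe sets gave a ratio below -0.09.

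Jag1 codes for the ligand Jagged1, and its probe sets disagreed in direction. The representing one, 1434070_at, went from 1152 with DMSO to 697 with PP1, which is 1.65-fold lower (log2 ratio -0.72). The others, 1421106_at and 1421105_at, went from 158 to 205 (0.38) and from 48.2 to 91.7 (0.93). Taking the median over the 3 probe sets turned the direction for Jag1, to 0.38, so no direction is given for this gene.

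The other ligands were close to the floor. Dll1, a Delta-type ligand, gave 35.3 with DMSO and 46.5 with PP1 in its only probe set (0.40). Jag2 was under the floor with DMSO, at 17.0, and just above it with PP1, at 33.6, for a bound of 0.09. With signals this near the floor, no direction is given for either gene.

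The lowest ratio among receptors and ligands (Jag1, -0.72) and the highest among targets (Hes1, -1.17) were 0.44 apart, about the spread between probe sets. With signals held at the floor, the 24 differences between a target and a receptor or ligand ran from -2.22 for Heyl against Dll1 to -0.44 for Hes1 against Jag1. Those with Nrarp or Jag2 are bounds and may be larger, since without a floor Nrarp stood at -1.99 and Jag2 at 0.98. Set against the receptors alone, the gap was wider, because the lowest receptor, Notch1, stood at -0.09.

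Other Hes and Hey genes were mostly undetected. Of 6 such genes with a probe set, Hes2, Hes3, Hes5 and Hes7 were under the floor on both arrays. Hey2, named here after its value was seen, went from 62.4 with DMSO to under the floor with PP1, and was thereby at least 1.97-fold lower. Hes6, which unlike its relatives is known to favour differentiation of neurons, went from 139 to 166 (0.26).

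Among further receptors and ligands, Notch4 and, by its representing probe set, the contactin Cntn1 were under the floor on both arrays. By representing probe sets, 1 of the 9 others measured was at least 2-fold higher and 0 at least 2-fold lower. The shares of all genes were 2.97% and 1.55%, and the median log2 ratio of the 9 was 0.37. The matricellular protein Ccn3, which is reported to bind Notch1, went from 1617 to 4100, or 2.54-fold higher, and its other probe set gave 1.17. Dlk1, a Delta-like protein known to restrain Notch signalling and adipocyte differentiation, went from 498 to 932 (0.91). Dner, a Delta-like protein of neurons, went from 50.4 to 85.2 (0.76), and its other probe set gave 1.13. Egfl7 stood at 0.08 by its representing probe set and at up to 1.23 by its further ones. The microfibril protein Mfap5 went from 1551 to 999 (-0.63), and its other probe set gave -1.26.

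The machinery that modifies, cuts and transmits the Notch signal lay near the bulk of genes by the representing probe sets. Of 34 measured genes from a list of 40, 0 were at least 2-fold higher and 0 at least 2-fold lower, beside 2.97% and 1.55% of all genes, and the median was 0.16. With so few genes, these counts are near the background. Further probe sets passed 2-fold for Adam17, a protease that cuts Notch (0.48 by its representing probe set and up to 1.59), and for the acetyltransferase Kat2b (0.18 and up to 1.27). At 1.5-fold, 3 were higher and 2 lower, beside 10.6% and 7.37% of all genes. Numbl, an endocytic adaptor related to the Notch inhibitor Numb, went from 148 to 288 (0.96). The ubiquitin ligase Dtx3 went from 170 to 294 (0.79), and Lfng, a glycosyltransferase that alters which ligands Notch answers to, from 94.9 to 145 (0.61). The corepressor Tle1, a partner of HES proteins, went from 266 to 152 (-0.80, but -0.22 by its other probe set). Fbxw7, which marks the Notch intracellular part for degradation, went from 235 to 152 (-0.63, but -0.03 by its other probe set). Rbpj itself went from 595 to 537 (-0.15), and its 3 probe sets ran from -0.15 to 0.68.

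**Figure D3:**
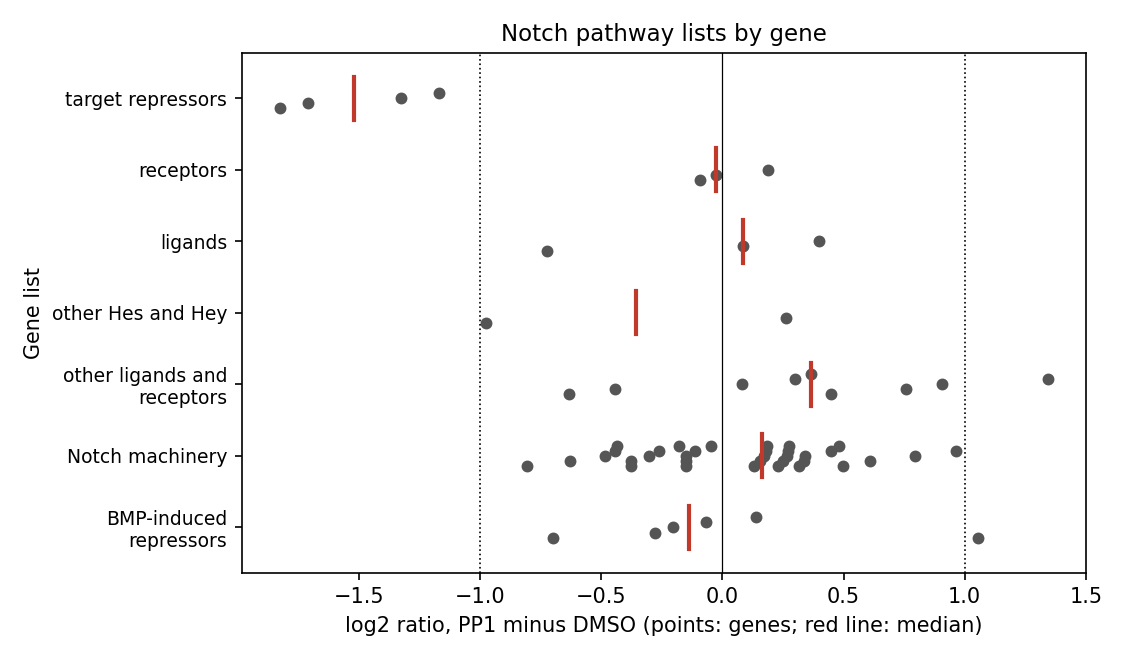
Log2 ratio (PP1 minus DMSO) of each measured gene in the Notch pathway lists and in a list of BMP-induced repressors; points are genes, red lines are list medians and dotted lines mark 2-fold. The target repressors are centred on -1.52, while the receptors (-0.02), the ligands (0.09) and the 34 machinery genes (0.16) are centred near 0.

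Several facts of the whole array pair bear on these values. As deposited, the PP1 array was dimmer, with a trimmed mean of 94.1 against 158.1, so all directions are relative to the bulk of genes. The 18 probe sets that read spiked-in bacterial controls were not dimmer, with a median deposited log2 ratio of 0.09 (SD 0.20), so whether a gene fell in absolute terms depends on the scaling. With the deposited values the median of all genes was -0.70 and 23.4% of genes were at least 2-fold lower, and the medians were -2.07 for the targets and -0.77 for the receptors and ligands. Relative to all genes, those medians were -1.37 and -0.07. In the deposited values the receptors' representing probe sets are thus all lower, from -0.84 to -0.56. RNA quality can be read from control probes at both ends of a transcript. The 3' over 5' log2 ratio on the PP1 array minus that on the DMSO array was -0.51 for Gapdh, -0.34 for Pcx and 0.14 for Actb. Its part in the results was not tested.

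Markers of the labelled cell type were partly present. Col1a1 (7558 with DMSO, 9931 with PP1), Alpl (188 and 242), Pth1r, Sp7 and Ibsp were above the floor, the osteocyte-associated Dmp1 and Phex were under it, and Runx2, Bglap, Bglap2 and Spp1 were not analysed here. Ibsp was 4.22-fold lower with PP1. Notch3 and Heyl are also known from smooth muscle cells and pericytes, so markers of these cells are given beside them. Of 10 such markers 9 were measured, and their median was -0.53, beside 0.01 for all measured genes. By representing probe sets, 4 (Cspg4, Actg2, Cnn1 and Pdgfrb) were at least 2-fold lower, beside 1.55% of all genes. The other probe set gave only -0.68 for Cspg4 and -0.63 for Pdgfrb, and the value of Cnn1 is a bound. Acta2, the brightest marker, went from 6994 to 5788 (-0.27), Tagln stood at -0.53, and Rgs5 went from 96.4 to 89.2 (-0.11). The measured markers above 0 were Des, 2.69-fold higher, and Mcam, 1.67-fold higher. Des is counted again, by the same probe set, among the skeletal muscle markers below. The summed signal of all 9 measured markers was 14803 with DMSO and 10302 with PP1, and the defining smooth muscle gene Myh11 was under the floor on both arrays. The part of these cells in the lower target signals was not tested. Of 8 endothelial markers, Pecam1, Emcn, Tie1, Vwf and Flt1 were under the floor on both arrays, and the 3 measured ones summed to 90.2 with DMSO and 131 with PP1. The 7 macrophage markers were all measured, with summed signals of 13532 and 16221 and a median of 0.36. Those of osteoclasts (4 of 7 measured, median -0.09), cartilage (6 of 7, -0.23) and skeletal muscle (6 of 6, 0.62) were measured in part or in full, and the part of any of these cells was not tested.

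**Figure D4:**
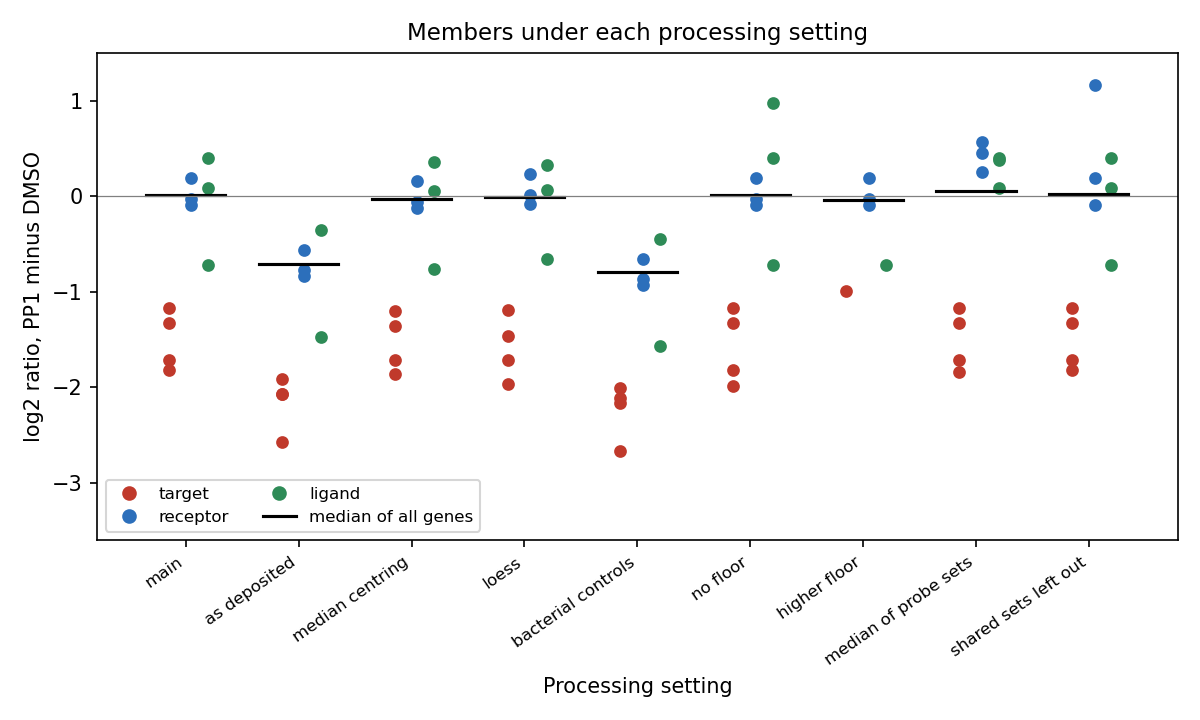
Log2 ratio (PP1 minus DMSO) of each member under the main setting and 8 alternative processing settings; red points are targets, blue receptors and green ligands, and black bars are the median of all measured genes. Wherever a target was measured, it lies below the median of all genes, and under the higher floor Hes1 is the only target left, at -0.99.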

How the data were processed

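RNA of 1 DMSO culture and 1 PP1 culture was hybridised to 1 Affymetrix whole-genome mouse array each. The deposited values are linear signal intensities for 45101 probe sets, summarised with MAS5 per the submitters' processing notes; the sources used here give no version, target scaling or genome build. Probe sets were named by the platform annotation, and symbols were updated through RefSeq (GRCm38.p6) by gene identifier, which matched for 34754 of 34945 probe sets with 1 gene. Those with several genes (932) or no gene here (9160), and 64 controls, were left out of gene-level results. Scaling, floor and the choice of probe set are described with the results. A gene was called at 2-fold, and log2 ratios are PP1 minus DMSO. The number of arrays limits the precision, and no p-value is given.

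The members and gene lists were chosen with earlier results of these data known. Named are all 10 members and, by rule, certain genes of the other pathway lists. The rule asked for at least a 1.5-fold difference and at least 2 times the floor on 1 array. Hey2, Adam17, Kat2b and Egfl7 fell outside it and were named after their values were seen. Others were chosen by name. With 2 arrays no likeness between gene patterns was computed. Alternatives were the deposited values, median centring, loess (span 0.3), scaling to 18 bacterial hybridization controls, a floor at the 75th percentile or none, the median of all probe sets of a gene, the omission of those marked as shared, and thresholds of 1.5-fold and 3-fold. The steps were tested on simulated data. Python 3.11.15, numpy 2.4.6, pandas 2.3.3, scipy 1.17.1, statsmodels 0.14.6 and matplotlib 3.10.9 were used.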

Additional observations from a re-analysis of the deposited data

How the results depend on the processing

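No paired analysis was possible because each treatment had 1 array. Under the 8 alternatives to scaling, floor and probe set, each measured target stayed below the median of all genes. The number of targets at least 2-fold lower stayed at 4 under 7 of them, but 2 of these lower the bulk of genes too, with 23.4% of all genes at least 2-fold lower as deposited and 30.6% under the bacterial controls, against 1.55% in the report. With a floor at the 75th percentile (a signal of 161) it was 0, beside 1.12% of all genes. Hes1 alone of the targets was still measured there, at a bound of -0.99, and the difference of medians was -0.94. At 3-fold the number of targets was 2, and the share of all genes at that threshold was not computed. At 1.5-fold 1 of the receptors and ligands, Jag1, was lower, beside 7.37% of all genes. With the deposited values the medians were -2.07 for targets and -0.77 for receptors and ligands, and 1 of the latter, Jag1, was at least 2-fold lower. Scaled to the bacterial controls they were -2.14 and -0.87, again with 1 such gene. Direction depended on the probe sets for Jag1 (0.38 by their median), Notch1 (0.25) and Notch3 (0.57 by their median, and 1.17 without the probe set marked as shared). With the median over probe sets, the receptors and ligands had a median of 0.39, beside 0.06 for all genes. The difference between targets and receptors and ligands was then -1.91. Low signal limits Jag2 and Dll1, which lie near the floor.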

Other observations

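HES and HEY genes also answer to bone morphogenetic proteins (BMP), so 6 genes that BMP signalling is known to induce and whose products are repressors or inhibitors were set beside them. Their median log2 ratio was -0.14, with 1 gene at least 2-fold higher (2.97% of all genes) and 0 at least 2-fold lower (1.55%). Id1 gave a signal of 366 with DMSO and 403 with PP1 (0.14), Id2 gave 1296 and 1125 (-0.20), and Id3 gave 1659 and 1582 (-0.07). Id4 went from 411 to 853, or 2.07-fold higher, and its 3 probe sets ran from 0.98 to 1.05. Smad6 was at -0.28. Smad7, an inhibitor induced by both BMP and TGF-beta, was at -0.70 by its representing probe set and -1.39 by the other. Of the 6 genes, 1 (Id4) was at least 1.5-fold higher and 1 (Smad7, 1.62-fold) at least 1.5-fold lower, beside 10.6% and 7.37% of all genes. A part of BMP signalling in the target values was not tested.

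Where several probe sets of a gene exceeded the floor with DMSO and with PP1, those other than the representing one tended to give the higher ratio. This was so for 64.2% of 4745 such genes, with a median difference of 0.16 on the log2 scale. All 3 members with several such probe sets showed it, by 0.68 for Notch1, 1.19 for Notch3 and 1.38 for Jag1.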
